A study of Mus musculus with 12 samples.

Results

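The 8 genes described here, Odc1, Srm, Sms, Amd1, Azin1, Oaz1, Oaz2 and Sat1, encode the enzymes that make polyamines and the proteins that hold their level. They were chosen by symbol from the 24421 genes of the RNA-seq counts, with results of these data already known. Among these results was that Srm, a target of the transcription factor MYC, was among the members called. For that reason the changes against 0 nM dTAG13 are given as a description, and the calls made on them, known at the choice, are not offered as evidence. Of the 8 genes, 6 passed the filter on low values, and the other 2, Amd1 and Oaz1, could not be measured from these counts because their exons are assigned to a second symbol as well.

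RNA-seq was performed on mouse embryonic stem (mES) cells of C57BL/6J origin (B6 in the labels), kept in 2i+LIF, in which the FKBP12-F36V degron had been knocked into Brg1 (Smarca4), the gene of the ATPase of the mSWI/SNF chromatin remodeler. The degron lets the small molecule dTAG13 send the tagged BRG1 protein to the proteasome. Knock-in cells, which the study derived from single cells, received 0.3, 1, 3, 10 or 100 nM dTAG13 for 24 h, or DMSO as the control (0 nM), and all 12 libraries, 2 per condition, carried the knock-in, so that the effect of the tag itself is shared by every group. In the sample numbers of the labels, 0, 1, 10 and 100 nM form 1 series from 1 to 8, and 0.3 and 3 nM form another from 3 to 6, so for these 2 doses the series and the dose cannot be told apart in a comparison with 0 nM.

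Total counts per library ran from 4663484 to 6375582. Of these, the abundant noncoding RNAs Rn45s and Rpph1 made up 10.5% to 19.41% and 2.09% to 3.63%. Smarca4 transcript, which the degron does not target, stood between 63.5 and 71.3 RPKM in all libraries and so does not check the labels. RPKM are read pairs per kilobase of exon, scaled to the library size of the fit. The 0 nM libraries read 64.2 and 63.5 RPKM and the 100 nM libraries 71.3 and 71.2 RPKM. For Smarca4 this was a log2 fold change of 0.16 (SE 0.055), a call under the rule given below. All 8 pluripotency markers examined exceeded 1 RPKM on average, and their summed level was 2060 and 2080 RPKM at 0 nM and 1870 and 1830 RPKM at 100 nM. Markers of other lineages were low, but most of their sums were higher at 100 nM than at 0 nM. The sum of 5 trophectoderm markers was 16.1 and 13.1 RPKM at 0 nM and 22.3 and 22.7 RPKM at 100 nM, that of 4 neural markers 4.93 and 5.80 against 9.83 and 10.3 RPKM, and that of 4 mesoderm markers 6.53 and 4.90 against 8.13 and 8.08 RPKM. Primitive endoderm and fibroblast markers stayed at or below 1.91 RPKM in sum, and no marker was at 0 in all libraries. The part of these cells in the results below was not tested, and in bulk RNA fewer cells of a type and less RNA per cell cannot be told apart.

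Polyamines are small, positively charged molecules that bind nucleic acids and that dividing cells need for translation. Ornithine decarboxylase (ODC1) makes putrescine from ornithine. Spermidine synthase (SRM) and spermine synthase (SMS) then add aminopropyl groups that come from S-adenosylmethionine after its decarboxylation by AMD1. When polyamines are plentiful, ribosomes shift frame on the antizyme mRNAs (Oaz1, Oaz2), and the antizyme made binds ODC1 and takes it to the proteasome. The antizyme inhibitor AZIN1, which resembles ODC1 but lacks its activity, frees ODC1 by binding antizyme in its place. SAT1 acetylates spermidine and spermine, which begins their breakdown or export.

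Amd1 and Oaz1 were the members without usable counts. Amd1 (mm10 chromosome 10, 40287458 to 40302188, minus strand) had 0 counts in all 12 libraries. In the annotation used for counting, 3197 of its 3206 exon bases also belonged to Amd2, which likewise had 0 counts. Oaz1 (chromosome 10, 80826656 to 80829290, plus strand) had 1 to 6 counts per library, and 962 of its 1075 exon bases also belonged to Oaz1-ps, which had 0 counts. The counting as run left out read pairs that overlapped exons of more than 1 gene. Across the whole annotation, 568 of the 612 genes whose exons were at least 90% shared with another symbol (92.8%) had no count in any library, against 649 of the 23809 other genes (2.7%). This difference follows from the way of counting. Oaz1, with 89.49% of its exon bases shared, fell just under the 90% limit and was among the other genes. Because pairs on shared exons were left out, a count at or near 0 says nothing about the expression of Amd1 or Oaz1 in these cells. No fold change is given for them.

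**Figure D1:**
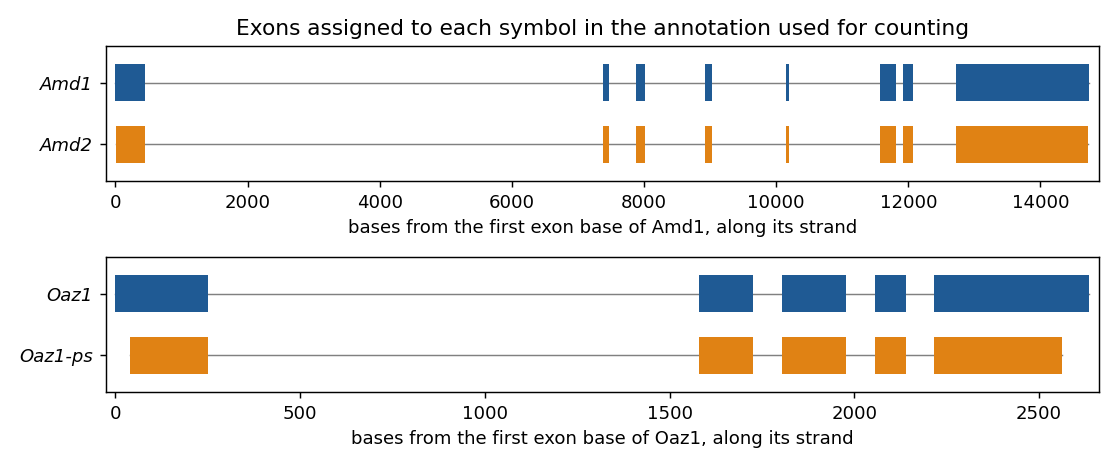
Exons assigned to Amd1 and Amd2 (upper panel) and to Oaz1 and Oaz1-ps (lower panel) in the annotation used for counting, drawn to scale as bases from the first exon base of Amd1 or Oaz1 along its strand. Nearly every exon base of Amd1 (3197 of 3206) and most of those of Oaz1 (962 of 1075) are assigned to the second symbol as well.

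GENCODE M21, an annotation of the same genome build (GRCm38), places the copies elsewhere. It has Amd2 as a protein-coding gene at chr10:35708675-35711892 and Oaz1-ps as a processed pseudogene at chr17:17345456-17346140, both on the minus strand. The copies are close to identical in sequence, which bears on any attempt to count them. The first 60 coding bases of Amd1, shown with the start codon in capitals, did not differ from those of Amd2 at any base.

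Amd1 and Amd2: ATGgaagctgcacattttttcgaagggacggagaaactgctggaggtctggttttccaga

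The stretch around the frameshift site of the antizyme mRNAs is shown because it is the control point of the pathway and because it makes the same point for Oaz1. Capitals mark the last codon in the first frame and the stop codon that the ribosome slips past. Over these 30 bases Oaz1-ps was identical to Oaz1, and Oaz2 differed from Oaz1 at 2 bases.
Oaz1: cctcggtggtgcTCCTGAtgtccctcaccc
Oaz1-ps: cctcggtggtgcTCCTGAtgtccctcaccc
Oaz2: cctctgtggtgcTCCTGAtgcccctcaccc

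The share of 75-base words of a member's longest coding transcript that also occur in a transcript of another gene was 81.9% for Amd1 and 45.9% for Oaz1. It was 30.5% for Odc1 and 28.2% for Sms, both of which have processed copies, and 6.1% for Oaz2, 5.9% for Azin1, 2.7% for Sat1 and 0% for Srm. Multi-mapped pairs were left out by the authors, so the levels of Odc1 and Sms in particular may miss pairs from these stretches, and a level set between genes carries that limit.

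At 0 nM the 6 measured members stood, per length, in the order Odc1 (141 ± 0.77 RPKM), Srm (89.7 ± 0.653), Azin1 (27.2 ± 0.264), Sat1 (20.6 ± 0.694), Oaz2 (13.5 ± 0.768) and Sms (10.5 ± 1.98; SD, n = 2 for each). The libraries of neighbours in this order did not overlap, although Oaz2 (12.9 and 14 RPKM) and Sms (9.05 and 11.9 RPKM) lay close together and overlapped at 0.3 nM and 10 nM. At 100 nM Sat1 (37.3 ± 0.484 RPKM) stood above Azin1 (32.9 ± 0.377 RPKM; SD, n = 2), the only change in the order.

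**Figure D2:**
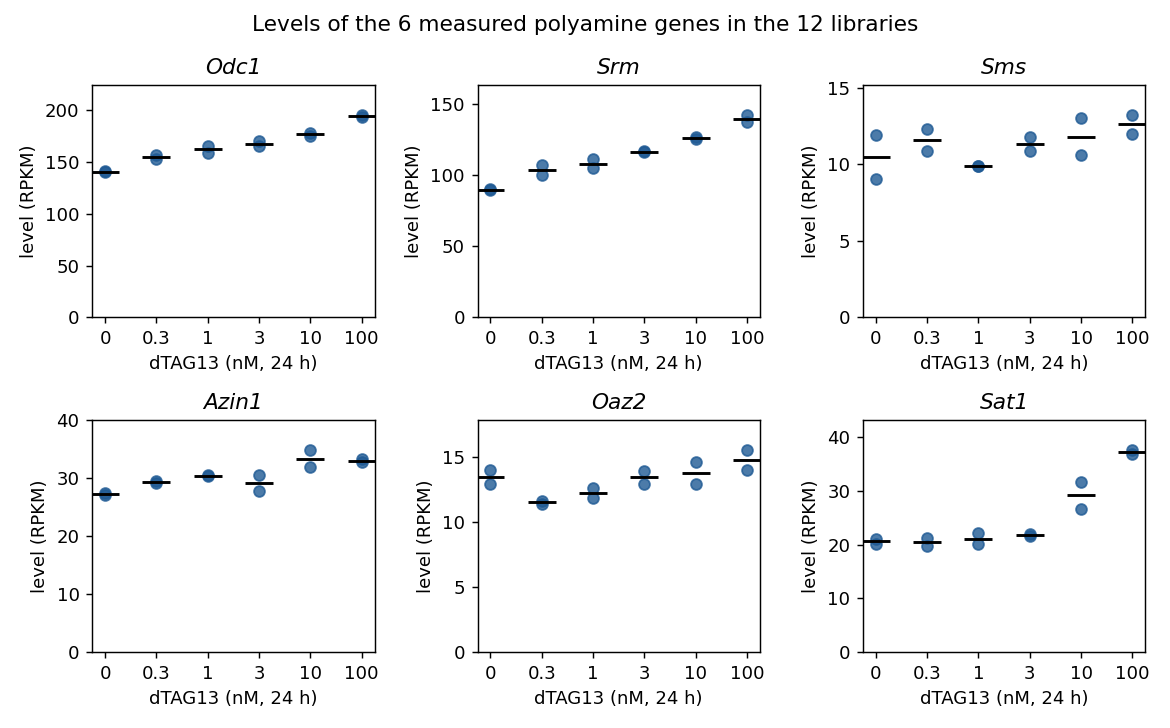
Level in RPKM (vertical axes, from 0, a separate scale for each gene) of the 6 measured members in every library against dTAG13 dose in nM (horizontal axes, equally spaced). Points are libraries and bars are means of 2; Odc1 goes from 140 to 195 RPKM and Srm from 89.2 to 142 RPKM between its lowest and highest library, and Sat1 lies at or below 22.1 RPKM up to 3 nM.

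Odc1 (chromosome 12, 17544873 to 17551502, plus strand), the gene of the first enzyme, had a higher mean level at each step of dose. Its 2 libraries read 140 and 141 RPKM at 0 nM, 157 and 153 at 0.3 nM, 159 and 165 at 1 nM, 170 and 165 at 3 nM, 178 and 175 at 10 nM, then 195 and 193 at 100 nM. Every treated library lay above both controls. Relative to 0 nM the log2 fold change was 0.14 (SE 0.0535) at 0.3 nM, 0.20 (SE 0.0533) at 1 nM, 0.25 (SE 0.0535) at 3 nM, 0.32 (SE 0.0532) at 10 nM and 0.46 (SE 0.0531) at 100 nM, which is 1.38-fold at the highest dose.

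Srm (chromosome 4, 148591513 to 148594619, plus strand), which makes spermidine, also had a higher mean at each step, and whether its change differed from that of Odc1 was not tested. Levels were 90.1 and 89.2 RPKM at 0 nM, 107 and 100 at 0.3 nM, 111 and 105 at 1 nM, 116 and 117 at 3 nM, 127 and 125 at 10 nM, then 142 and 137 at 100 nM. Here too the controls were the lowest of all 12 libraries. The log2 fold change was 0.21 (SE 0.0697), 0.27 (SE 0.0692), 0.38 (SE 0.0695), 0.49 (SE 0.0687) and 0.64 (SE 0.0682) in order of dose, or 1.56-fold at 100 nM. Without the filter on low values it was 0.56 at 100 nM, under the 1.5-fold limit that the study uses for its gene lists. The other measured members were also lower in that fit.

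Sat1 (chromosome X, 155213126 to 155216449, minus strand), the gene of the acetyltransferase, stayed near its control level up to 3 nM and was higher at the 2 highest doses. It read 20.2 and 21.1 RPKM at 0 nM, 19.7 and 21.3 at 0.3 nM, 22.1 and 20.1 at 1 nM, 21.6 and 22 at 3 nM, then 26.7 and 31.6 at 10 nM, with 36.9 and 37.6 at 100 nM. Up to 1 nM the treated libraries overlapped the controls, and at 10 and 100 nM they lay above every library of the lower doses. The log2 fold change was -0.01 (SE 0.127), 0.03 (SE 0.126), 0.08 (SE 0.128), 0.49 (SE 0.121) and 0.85 (SE 0.117) in order of dose, the largest at 100 nM among the members (1.80-fold).

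Azin1 (chromosome 15, 38487430 to 38519266, minus strand), the antizyme inhibitor, moved less. Its libraries read 27.1 and 27.4 RPKM at 0 nM, 29.1 and 29.4 at 0.3 nM, 30.5 and 30.3 at 1 nM, 30.5 and 27.8 at 3 nM, 31.8 and 34.8 at 10 nM, then 32.7 and 33.2 at 100 nM. All treated libraries were above both controls, the second 3 nM library by the least. The log2 fold change was 0.29 (SE 0.07) at 10 nM and 0.27 (SE 0.0699) at 100 nM, and between 0.10 and 0.16 at the lower doses.

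Sms (chromosome X, 157443954 to 157492046, minus strand), which turns spermidine into spermine, stayed between 9.05 and 13.2 RPKM. The controls were 9.05 and 11.9 RPKM and the 100 nM libraries 12 and 13.2 RPKM, and at every other dose at least 1 library lay between the controls. At 100 nM its log2 fold change was 0.27 (SE 0.128), a value that rested on the control libraries: it was 0.09 without the first 0 nM library and 0.47 without the second.

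Oaz2 (chromosome 9, 65676548 to 65690300, plus strand), the antizyme that could be counted, had 117 to 175 counts per library. The controls were 12.9 and 14 RPKM, the 0.3 nM libraries 11.6 and 11.4 RPKM, the 1 nM libraries 12.6 and 11.8 RPKM and the 100 nM libraries 14 and 15.5 RPKM. Its libraries were below both controls at 0.3 and 1 nM and at 100 nM 1 of the 2 lay above both, with log2 fold changes of -0.23 (SE 0.136), -0.14 (SE 0.134) and 0.13 (SE 0.13) at these 3 doses.

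**Figure D3:**
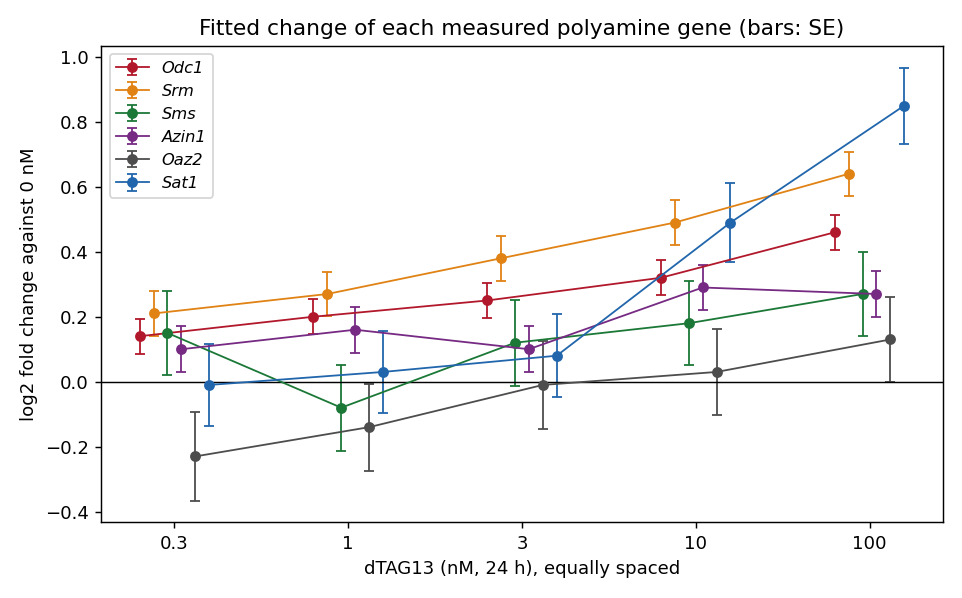
Fitted log2 fold change against 0 nM (vertical axis) of each measured member by dTAG13 dose in nM (horizontal axis, equally spaced), with bars of 1 SE; points are offset sideways for legibility. Srm and Odc1 lie above 0 from 0.3 nM on, Sat1 departs from 0 between 3 and 10 nM and reaches 0.85 at 100 nM, and Oaz2 stays within 0.23 of 0.

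A gene was called where edgeR's quasi-likelihood test, adjusted over all 11378 genes tested (Benjamini-Hochberg), gave a value under 0.05. Of the 6 members tested, 0 were called at 0.3 nM, where 0.0703% of all genes were, 2 (Odc1 and Srm) at 1 nM, where 2.29% were, and the same 2 at 3 nM, where 9.40% were. At 10 nM and at 100 nM 4 members were called (Odc1, Srm, Azin1 and Sat1), all higher, beside 17.9% and 23.4% of all genes. With a fold change over 1.5 required as well, 2 members remained at 100 nM, Srm and Sat1, beside 11.2% of all genes. At 0.3 nM, 2 members had an unadjusted p under 0.05 by edgeR, and DESeq2 called 0. These counts were known when the genes were chosen and carry no weight of their own. The members on either side of the threshold at 100 nM were Azin1, with an adjusted p of 0.00497 from edgeR, and Sms, with 0.142. The median log2 fold change at 100 nM was 0.37 over the 6 members and 0 over all genes tested.

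Comparisons between treated doses leave out the levels at 0 nM. The 0 nM libraries were still part of the fit, and so of the spread behind each SE and p. These comparisons also share the treated libraries with the comparisons known at the choice of genes and are not independent of it. Between 10 nM and 1 nM, 2 of the 6 members were called, Sat1 and Srm, beside 6.27% of all genes. Sat1 was higher at 10 nM by a log2 fold change of 0.47 (SE 0.12, adjusted p = 0.0182, edgeR), with both 10 nM libraries above both at 1 nM. That call was lost without the first 1 nM library (adjusted p = 0.0554), the second 1 nM library (0.203) or the second 10 nM library (0.234), all from edgeR, with only the libraries of these 2 doses in the fit (0.0767, edgeR) and with DESeq2 (0.0964), and its fold change was under 1.5. Srm differed by 0.22 (SE 0.0677, adjusted p = 0.0478, edgeR), just inside the threshold, and was called under 5 of 21 alternatives at the same threshold. Between 3 nM and 0.3 nM, which belong to the other series of sample numbers, edgeR called 0 members beside 5.31% of all genes, and Srm (0.17, SE 0.069) and Odc1 (0.11, SE 0.0534) had an unadjusted p under 0.05. Between 100 nM and 10 nM it called 0 members beside 2.37% of all genes, and 3 had an unadjusted p under 0.05, with log2 fold changes of 0.36 (SE 0.112) for Sat1, 0.15 (SE 0.0666) for Srm and 0.14 (SE 0.0526) for Odc1. DESeq2 called 0 members in both. For Azin1 the approximate 95% interval of the difference between 100 nM and 10 nM ran from -0.15 to 0.12, and for Oaz2 from -0.15 to 0.36. These intervals were taken from the SE by the normal distribution, which makes them narrower than the test's own.

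Across the 12 libraries, which share their dose order, Spearman's rho of level with dose was 0.975 for Odc1, 0.975 for Srm, 0.876 for Azin1, 0.862 for Sat1, 0.481 for Oaz2 and 0.452 for Sms. Pearson's r of log2 levels was 0.976 between Odc1 and Srm, the closest pair, and 0.299 between Sms and Azin1, the least alike. Outside the members, the genes most like Srm by this measure were Fgd1 (r = 0.988), Spire1 (0.977), Grsf1 (0.973), Pot1a (0.969) and Dppa2 (0.968), and those most like Odc1 were Fgd1 (0.981), Erf (0.977), Irf9 (0.973), Nub1 (0.967) and Grsf1 (0.965), all over 12 libraries and as a description. Myc itself stood at 24.3 and 23.9 RPKM at 0 nM, 25.9 and 25.2 at 0.3 nM, 38.2 and 38 at 1 nM, 46.7 and 47.4 at 10 nM, then 44.3 and 47.9 at 100 nM. With 3 nM, the Myc libraries read 40.4 and 41.7 RPKM, and Spearman's rho of Myc with dose was 0.961. By log2 fold change Myc moved 0.09 (SE 0.0854) and Srm 0.21 with 0.3 nM, where neither was called. From 1 nM on both were called, with Myc at 0.66 (SE 0.0818), 0.77 (SE 0.0822), 0.96 (SE 0.0806) and 0.94 (SE 0.0805) by rising dose. Srm stood at 0.27, 0.38, 0.49 and 0.64 there. The doses 0.3 and 3 nM belong to the other series of sample numbers. Whether Myc and Srm differed in response was not tested.

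Ratios of levels within a library do not depend on its size. The ratio of Odc1 to Sat1, of polyamine synthesis to acetylation genes, was 6.95 and 6.68 at 0 nM, 7.17 and 8.24 at 1 nM, 6.68 and 5.52 at 10 nM, then 5.27 and 5.14 at 100 nM. Its 100 nM libraries were the lowest of the 12. The ratio of Odc1 to Oaz2 was 10.8 and 10.1 at 0 nM and between 11.9 and 14 in every treated library, so all treated libraries lay above the controls with no order by dose. For Srm to Sms the controls, 9.96 and 7.53, overlapped the range of the treated libraries, 8.65 to 11.8. Odc1 to Azin1 varied little, from 5.02 to 5.96. Ratios with Oaz1 were not computed, since Oaz1 could not be counted.

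Promoter sequences from RefSeq (GRCm38.p6) were at hand for 6 of the 8 members, and those of Srm and Azin1 were not analysed here. The E-box CACGTG, the letters that MYC with its partner MAX is known to bind, and the GC box GGGCGG, known to be bound by SP1, were searched on both strands in the 250 bases before each start. CACGTG occurs in 6.02% and GGGCGG in 32.74% of all 32851 such windows. The windows of Odc1 and Sat1, the called members with a sequence, and the window of Sms that holds an E-box are shown with both motifs in capitals. The first is chr12:17544623-17544872 (plus strand), the second chrX:155216450-155216699 (minus strand) and the third chrX:157492288-157492537 (minus strand).
Odc1: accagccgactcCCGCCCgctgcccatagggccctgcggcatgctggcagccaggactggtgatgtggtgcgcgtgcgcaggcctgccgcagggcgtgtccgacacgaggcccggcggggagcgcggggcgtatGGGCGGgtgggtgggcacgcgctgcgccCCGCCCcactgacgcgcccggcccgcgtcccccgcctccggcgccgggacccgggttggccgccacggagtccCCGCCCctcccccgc
Sat1: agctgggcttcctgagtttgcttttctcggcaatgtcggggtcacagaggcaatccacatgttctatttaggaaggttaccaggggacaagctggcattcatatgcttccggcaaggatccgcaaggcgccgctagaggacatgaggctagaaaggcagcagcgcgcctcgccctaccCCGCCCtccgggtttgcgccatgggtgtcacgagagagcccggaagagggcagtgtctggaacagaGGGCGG
Sms: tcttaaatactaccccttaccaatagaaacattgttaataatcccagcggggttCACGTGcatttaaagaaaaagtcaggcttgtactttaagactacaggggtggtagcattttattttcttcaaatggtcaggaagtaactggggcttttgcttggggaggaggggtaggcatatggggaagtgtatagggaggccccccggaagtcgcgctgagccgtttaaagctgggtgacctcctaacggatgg

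The window of Odc1, 80% G or C, holds 4 GC boxes and no E-box, and that of Sat1, 59.6% G or C, holds 2 GC boxes and no E-box. The E-box of Sms begins 196 bases before the start of 1 of its 2 RefSeq windows, and Sms was not among the members called. Among windows not shown, the other Sms window holds 4 GC boxes, that of Oaz2 3, that of Amd1 1 and that of Oaz1 0. None of them holds an E-box, and Oaz2, like Sms, was not among the members called. All these matches are letters in a window, and binding was not measured here. Bases outside the windows, those after the start included, were not searched, so a motif absent from a window may lie elsewhere in the gene. Whether motifs and calls go together was not tested, and Srm and Azin1, both called, had no window.

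The wider pathway was described with 41 further genes in 7 lists, of which 26 passed the filter. At 100 nM against 0 nM, edgeR's test adjusted over all genes called 3 of them higher, where 10.1% of all genes were called higher, and 4 lower, where 13.3% were, and 19 were not called. The counts of 3 and 4 among the 26 lie near these shares and are not read as a result about the pathway. In either direction 23.4% of all genes were called. The median log2 fold change over the 26 was -0.04, against 0 over all genes tested. Of the 7 calls, those of Slc7a2, Oat, Got1 and Atp13a3 held under 21 alternatives at the same threshold. Those of Enoph1, Adi1 and Mat2b were each lost when single 0 nM or 100 nM libraries were left out. The calls of Adi1 and Mat2b were also lost with DESeq2 and with no normalization factors, and that of Enoph1 with no filter on low values. With a fold change over 1.5 required as well, Slc7a2 and Got1 alone remained of the 7, and Oat (1.46-fold) and Atp13a3 (0.712 of the control level) were not called.

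Among the genes that supply arginine and ornithine, 2 of the 4 tested were called, both higher, and 2 were not. Of all genes, 10.1% were called higher and 13.3% lower. Slc7a2, a carrier of arginine, lysine and ornithine, had the largest change of the 26 genes. It read 1.81 and 2.09 RPKM at 0 nM, 2.07 and 1.70 at 0.3 nM, 3.36 and 3.26 at 1 nM, 5.63 and 6.11 at 3 nM, 8.06 and 8.82 at 10 nM, then 9.86 and 8.53 at 100 nM. From 1 nM on every library was above all of those at 0 and 0.3 nM, and at 100 nM the log2 fold change was 2.23 (SE 0.125, adjusted p = 6.05e-13, edgeR), or 4.70-fold. Oat, the mitochondrial aminotransferase that interconverts ornithine and glutamate semialdehyde, rose from 39.7 and 39.2 RPKM to 57.6 and 57.7 RPKM (log2 fold change 0.55, SE 0.0758, adjusted p = 4.39e-06, edgeR). Slc7a1, the related carrier with the higher level in these cells, had 31.4 ± 2.14 RPKM in the controls and 28.9 ± 0.784 RPKM with 100 nM (SD, n = 2), and its change was a log2 fold change of -0.12 (SE 0.0692, adjusted p = 0.238, edgeR). Asl, the lyase that releases arginine in the urea cycle, had 8.09 and 8.41 RPKM in the controls against 5.63 and 5.35 RPKM, lower in both libraries but not called (log2 fold change -0.59, SE 0.228, unadjusted p = 0.0166, adjusted p = 0.0644, edgeR). Ass1, on the same list, shared 95.16% of its exon bases with Gm5424 and was not measured.

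Methylthioadenosine salvage recycles the by-product of spermidine and spermine synthesis. Of its 6 genes, 1 was called higher and 2 lower, beside 10.1% and 13.3% of all genes. Got1, the cytosolic aspartate aminotransferase listed here for the last step, fell from 40.6 and 44.5 RPKM at 0 nM to 25.1 and 23.9 RPKM at 100 nM (log2 fold change -0.80, SE 0.102, adjusted p = 1.42e-06, edgeR), and at 10 nM it was at 29.5 and 27.3 RPKM. Got1 also serves the malate-aspartate shuttle, so its change is not particular to salvage. Of 2 enzymes in the middle of the route, Enoph1 was higher (0.37, SE 0.105, adjusted p = 0.0107, edgeR) and Adi1 lower (-0.49, SE 0.173, adjusted p = 0.0405, edgeR). The change of Adi1 was -0.26 without the first 0 nM library, where its call was lost, as it was without either 100 nM library. That call was also lost with DESeq2 (adjusted p = 0.139, Wald test) and with no normalization factors (adjusted p = 0.0842, edgeR). Enoph1 was not called without the second 0 nM library (0.29) or the first 100 nM library. With no filter on low values Enoph1 was not called either (0.29, adjusted p = 0.0724, edgeR). Mtap, the phosphorylase that opens the route, had a log2 fold change of -0.12 (SE 0.1, adjusted p = 0.422, edgeR).

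Of 5 tested genes for polyamine transport, 1 was called, beside 23.4% of all genes. This was Atp13a3, a P-type ATPase linked to polyamine uptake. It fell from 46.8 and 46 RPKM to 33.1 and 33 RPKM (log2 fold change -0.49, SE 0.0662, adjusted p = 2.99e-06, edgeR). Its relative Atp13a2, the lysosomal polyamine exporter, was at 9.11 ± 0.145 RPKM and 10.1 ± 0.205 RPKM (SD, n = 2; log2 fold change 0.14, SE 0.11, adjusted p = 0.387, edgeR). In S-adenosylmethionine supply 1 of 4 genes was called, beside 23.4% of all genes. This was Mat2b, the regulatory subunit of the synthetase, at -0.33 (SE 0.095, adjusted p = 0.0117, edgeR). The call was lost without the second 0 nM library or the first 100 nM library. It was also lost with DESeq2 (adjusted p = 0.0659, Wald test) and with no normalization factors (adjusted p = 0.0805, edgeR). The catalytic partner of Mat2b, Mat2a, stood at 138 and 138 RPKM at 0 nM and 136 and 136 RPKM at 100 nM.

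In the remaining 3 lists edgeR called 0 of the 7 genes tested, beside 23.4% of all genes, and DESeq2 called 0. Of the 7, 3 had an unadjusted p under 0.05 by edgeR (Smox, Paox and Eif5a2). Smox and Paox, the oxidases of spermine and of acetylated polyamines, had log2 fold changes of 0.53 (SE 0.247, adjusted p = 0.13) and -0.63 (SE 0.259, adjusted p = 0.0814). Azin2, the second antizyme inhibitor, was at -0.35 (SE 0.344, adjusted p = 0.514). The 4 genes of hypusine formation, in which spermidine gives a side chain to the translation factor eIF5A, lay between -0.36 (Eif5a2, SE 0.156, adjusted p = 0.102) and 0.09 (Dohh), with Eif5a itself at 486 and 508 RPKM at 0 nM and 482 and 485 RPKM at 100 nM.

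**Figure D4:**
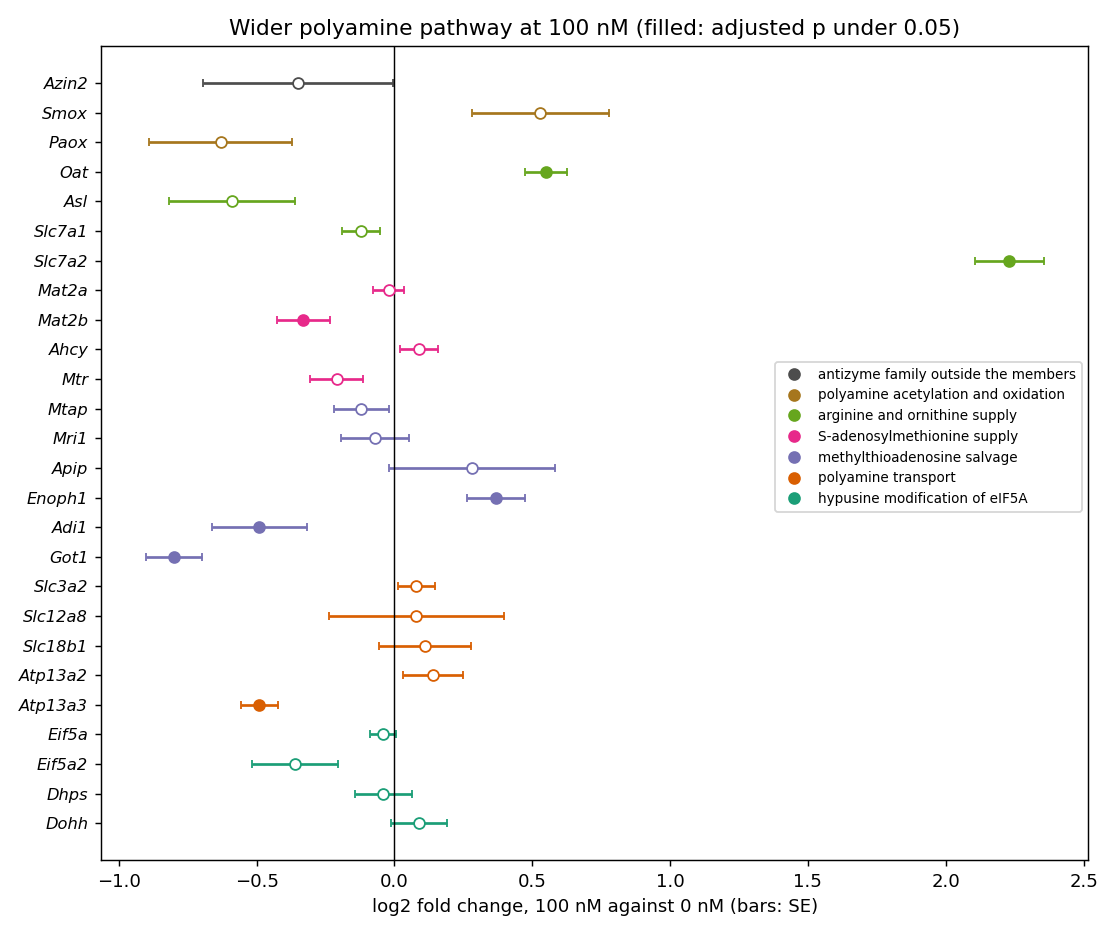
Log2 fold change at 100 nM against 0 nM (horizontal axis, bars of 1 SE) of the 26 wider pathway genes that passed the filter, coloured by list; filled points have an adjusted p under 0.05 by edgeR. Slc7a2 stands at 2.23, well to the right of the other genes, Oat and Enoph1 are the other filled points above 0, and Got1, at -0.80, is the lowest of the 4 filled points below 0.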

How the data were processed

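RNA-seq libraries of 12 samples (SMART-Seq Stranded Kit, total RNA) were analysed. The authors trimmed reads with Trim Galore, aligned them to mm10 with HISAT2 and deposited raw counts of read pairs per gene symbol from featureCounts 2.0.1, run on exons with both ends aligned, without strand and without counting multi-mapped or multi-overlapping pairs. Depth was 4663484 to 6375582 counts per library, which limits genes of few counts such as Oaz2.

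In R 4.3.3, genes averaging 1 RPKM or more (11378) were tested with edgeR 4.0.16 (quasi-likelihood, TMM, 6 conditions fitted together, Benjamini-Hochberg), and SE was taken as the log2 fold change over the root of F. RPKM use the fit's library sizes. Correlations used log2(RPKM + 0.1). DESeq2 1.42.0 and the other alternatives are given under the processing section. Steps were tested on simulated data.

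Named were all members, wider genes called at 100 nM with a fold change over 1.5 and the largest change of each list, the 5 genes most like Srm and Odc1, Myc, Smarca4 and genes sharing exons with a member. Other wider genes named (among them Oat, Enoph1, Adi1, Slc7a1, Mtap, Atp13a2, Mat2a, Asl, Smox, Eif5a, Dohh and Ass1) were chosen after their values were seen, as were the ratios of Odc1 to Oaz2, Azin1 and Sat1. Members and lists were chosen with earlier results of these data known. Sequences are from RefSeq (GRCm38.p6) and GENCODE M21.

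The study describes 2 independent experiments, which the labels do not assign to libraries. Replicates differed by more than counting noise (chi-square per degree of freedom from 2.03 to 18.0). This value is summed over genes, and abundant RNAs can weigh heavily in it. At 3 nM, where it was 18.0, Rn45s made up 10.5% and 19.0% of the counts of the 2 libraries. The part of Rn45s in it was not computed. Pearson's r of log2 levels between replicates was 0.952 to 0.96. Libraries with the same replicate number did not deviate together (r from -0.0948 to 0.0927 over 15 pairs of conditions), so the main fit has no replicate block.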

Additional observations from a re-analysis of the deposited data

How the results depend on the processing

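At 100 nM the log2 fold changes of Odc1 (0.38 to 0.51), Srm (0.56 to 0.69) and Sat1 (0.77 to 0.90) kept their direction and their side of the threshold under the 21 alternatives that leave the threshold as it was. The alternatives refit a comparison known at the choice of genes and add no weight to its calls. That of Azin1 (0.19 to 0.32) lost its call without the filter on low values (0.19, adjusted p = 0.0781, edgeR). In that fit every measured member had a lower value than in the main fit, Odc1 0.38, Srm 0.56 and Sat1 0.77 among them. The median over all 23204 genes was 0.088 there, against 0 in the main fit. Sms (0.09 to 0.47) was called without the second 0 nM library, and Oaz2 (0.05 to 0.20) under no alternative. The 4 members called at 100 nM against 0 nM became 2 when a fold change over 1.5 was required, and leaving out 1 library gave 4 or 5.

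The 2 members called between 10 nM and 1 nM became 1 with the likelihood ratio test, with no normalization factors, with no filter and with the replicate block, and 0 with DESeq2, with only the 2 doses compared and with a fold change over 1.5 required. Leaving out 1 library gave 0 to 2. Between 3 nM and 0.3 nM and between 100 nM and 10 nM the count was 0 under every alternative. The 3 wider pathway genes higher at 100 nM became 1 with a fold change over 1.5 required. The 4 lower became 2 with DESeq2, 2 with no normalization factors, 8 with no filter and 1 with a fold change over 1.5 required. With no filter the wider genes called in the main fit all had lower values, among them Got1 (-0.88) and Slc7a2 (2.15). The causes were not tested. The replicate block, which the labels' numbers allow but the deviations of the libraries do not bear out as a pairing, changed no other count among the comparisons refitted with it (members at 100 nM against 0 nM and between treated doses, and wider genes at 100 nM). It was not fitted for the members called at 0.3, 1, 3 and 10 nM against 0 nM. Oaz2, with 117 to 175 counts per library, had the largest SE of the members at 100 nM (0.13).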
